A study of Homo sapiens with 47 samples.

Results

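The genes described here are 40 genes of the hypoxia response and of glycolysis, picked by name out of 62703 gene IDs in the deposited expression tables. They were grouped by role into glucose entry and lactate exit (3 genes), the upper steps of glycolysis (11), the lower steps (6), the lactate and pyruvate branch (4), oxygen sensing (3) and other targets of the hypoxia response (13). PC3, a human prostate cancer cell line, was transduced with a construct for DDC, with one for SLC6A4 or with an empty vector, and each group had 3 RNA libraries. DDC makes serotonin from 5-hydroxytryptophan, and SLC6A4 is the transporter that carries serotonin into cells. The same 3 lines had ChIP libraries for H3K4me3 and for H3K4me3Q5ser, the form of that promoter mark in which the neighbouring glutamine carries serotonin, 3 of each per line. CUT&Tag libraries of H3K4me3 from SLC6A4 cells with an shRNA against TGM2, from SLC6A4 cells and from control cells had 1 library each. All lines grew in the same serum-containing medium; no hypoxia treatment is labelled, and the oxygen level is not given in the sources used here. The labels do not say whether a line is a clone or a pool, nor whether the 3 libraries of a group came from separate cultures, so the p-values measure the spread between these libraries.

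Glycolysis splits glucose into pyruvate in the cytosol, and lactate dehydrogenase then turns pyruvate into lactate, which leaves the cell. When oxygen is scarce, the prolyl hydroxylases of the EGLN family no longer mark HIF1A for destruction by the VHL complex, and HIF1A with its partner ARNT binds short cores in promoters and enhancers, of which ACGTG is the usual form. Glucose transporters, many glycolytic enzymes, the PDK kinases that hold pyruvate out of mitochondria, the mitophagy receptors BNIP3 and BNIP3L, the collagen prolyl hydroxylases and VEGFA are among its known targets.

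To show what such a core looks like in these genes, the 250 bases before the RefSeq start (GRCh38.p14) are given 5′ to 3′ for 4 members that held an ACGTG there and had among the smallest adjusted p in RNA in both lines. Capitals mark ACGTG on either strand, which reads CACGT on the opposite strand; CACGTG is both at once.
BNIP3, chr10:131981924-131982173, minus strand: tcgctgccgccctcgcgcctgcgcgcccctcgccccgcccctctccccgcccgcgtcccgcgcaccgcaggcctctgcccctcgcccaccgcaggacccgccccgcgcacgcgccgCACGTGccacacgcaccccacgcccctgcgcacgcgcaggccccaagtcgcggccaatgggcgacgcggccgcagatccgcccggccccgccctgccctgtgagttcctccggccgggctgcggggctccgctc
PGK1, chrX:78103998-78104247, plus strand: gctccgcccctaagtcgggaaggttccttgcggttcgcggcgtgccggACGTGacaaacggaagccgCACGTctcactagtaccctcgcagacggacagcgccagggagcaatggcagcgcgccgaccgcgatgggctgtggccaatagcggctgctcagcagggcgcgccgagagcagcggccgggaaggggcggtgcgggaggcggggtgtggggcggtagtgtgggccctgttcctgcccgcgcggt
P4HA1, chr10:73096867-73097116, minus strand: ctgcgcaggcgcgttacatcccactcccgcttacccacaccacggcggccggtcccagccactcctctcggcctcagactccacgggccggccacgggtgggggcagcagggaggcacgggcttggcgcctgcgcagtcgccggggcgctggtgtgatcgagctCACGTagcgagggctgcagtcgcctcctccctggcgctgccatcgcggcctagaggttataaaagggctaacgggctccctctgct
LDHA, chr11:18394313-18394562, plus strand: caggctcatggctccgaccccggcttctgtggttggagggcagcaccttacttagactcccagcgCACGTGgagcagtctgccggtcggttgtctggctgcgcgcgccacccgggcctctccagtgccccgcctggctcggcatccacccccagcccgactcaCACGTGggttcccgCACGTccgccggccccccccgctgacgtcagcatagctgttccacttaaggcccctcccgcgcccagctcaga
The BNIP3 promoter held 1 CACGTG, whose first base lies 134 bases before the start. In the PGK1 promoter, the gene of phosphoglycerate kinase, the cores lay 202 and 183 bases before the start, on opposite strands. P4HA1 had 1 core, at 86 bases, and LDHA had 2 CACGTG and 1 further core, between 185 and 73 bases before the start. The letters are a description and show no binding. Over windows of 250 bases before and 50 after the start, 17 of the 36 members found in the RefSeq table (47.2%) held ACGTG on either strand, against 21.6% of 27305 promoters. GCGTG was present in 44.4% of the members and 36.3% of all promoters, and CACGTG, which overlaps ACGTG, in 16.7% and 7.43%. The median GC content of these windows was 69.7% for members and 58.3% for all promoters, and its part in these shares was not tested.

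RNA values are given as normalised reads, a gene's reads scaled by the size factor of its library; the libraries held 17.3 M to 21.7 M reads in genes (M, 1000000). The overexpressed genes checked the labels: DDC had 23.9, 27.5 and 30.8 normalised reads in the DDC libraries and 1 read in all over the empty-vector libraries, and SLC6A4 had 87.4, 109 and 129.5 in the SLC6A4 libraries and 1 read in all over the empty-vector libraries. Genes with at least 10 normalised reads in at least 3 libraries were tested with limma on log2(value + 1), where adjusted p-values (Benjamini-Hochberg) cover all genes tested, and "called" means an adjusted p under 0.05. Of the 40 members, 36 were tested. The epithelial markers KRT8, KRT18, KRT19, EPCAM and CDH1 summed to 16162 to 19700 normalised reads in DDC, 23518 to 25670 in SLC6A4 and 25333 to 30932 in empty-vector libraries. Of these markers, 5 of 5 were called lower in DDC and 4 of 5 in SLC6A4, where 8.41% and 9.28% of all genes tested were. The log2 changes of the 5 markers ran from -3.54 (CDH1) to -0.46 (KRT18) in DDC and from -1.17 (CDH1) to 0.14 (KRT8, not called) in SLC6A4 cells. Leukocyte markers summed to at most 4.36 normalised reads in any library. The endothelial markers PECAM1, VWF and CDH5 summed to 66.6 to 87.3 in DDC, 34.4 to 51.7 in SLC6A4 and 211 to 235 in empty-vector libraries, nearly all of it PECAM1, which was called lower in both lines (-1.49 and -2.34); VWF and CDH5 had 1 read each in all, both in SLC6A4 libraries. The fibroblast markers COL1A1, DCN and LUM summed to 9.95 to 28.6 in DDC, 24.2 to 31.8 in SLC6A4 and 40.3 to 51.0 in empty-vector libraries, with DCN at 0 reads in all and COL1A1 called lower in both lines (-1.64 and -0.99). Whether these shifts in markers have a part in the results that follow was not tested, and in bulk RNA fewer expressing cells and less RNA per cell cannot be told apart.

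Genes of the hypoxia response and of glycolysis were lower in both overexpressing lines, and none was called higher by limma, edgeR or DESeq2 with all libraries and a pseudocount of 1; at an unadjusted p under 0.05, 1 was higher in each line (PKM in DDC, HK1 in SLC6A4). PKM was called higher in DDC cells by limma without DDC replicate 1 (0.34, adjusted p = 0.012), without empty-vector replicate 1 (0.31, adjusted p = 0.048) or with a pseudocount of 5 (0.26, adjusted p = 0.047), and HK1 in SLC6A4 cells by limma without empty-vector replicate 1 (0.20, adjusted p = 0.045). In DDC cells 20 of the 36 tested members were called lower, where 8.41% of 13146 genes were called lower and 8.94% higher; 13 of the 20 fell by 1.5-fold or more. In SLC6A4 cells 22 of 36 were called lower, again 13 by 1.5-fold or more, where 9.28% of 13264 genes were called lower and 10.2% higher. The median log2 change over the 36 members was -0.46 in DDC and -0.35 in SLC6A4 cells, against 0.01 over all genes tested in each comparison. Both comparisons use the same 3 empty-vector libraries, so their values are given side by side and are not independent of each other. The members were picked with earlier results of these data known. The counts set against the all-gene shares are thus a description and no test of enrichment. The fall was uneven along the pathway: SLC2A1, SLC16A3, PGK1, LDHA and 8 of the 11 tested non-glycolytic hypoxia targets were called lower in each line, while GAPDH, ENO1, ALDOA, PKM, HK1 and GPI were not called in either line.

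**Figure D1:**
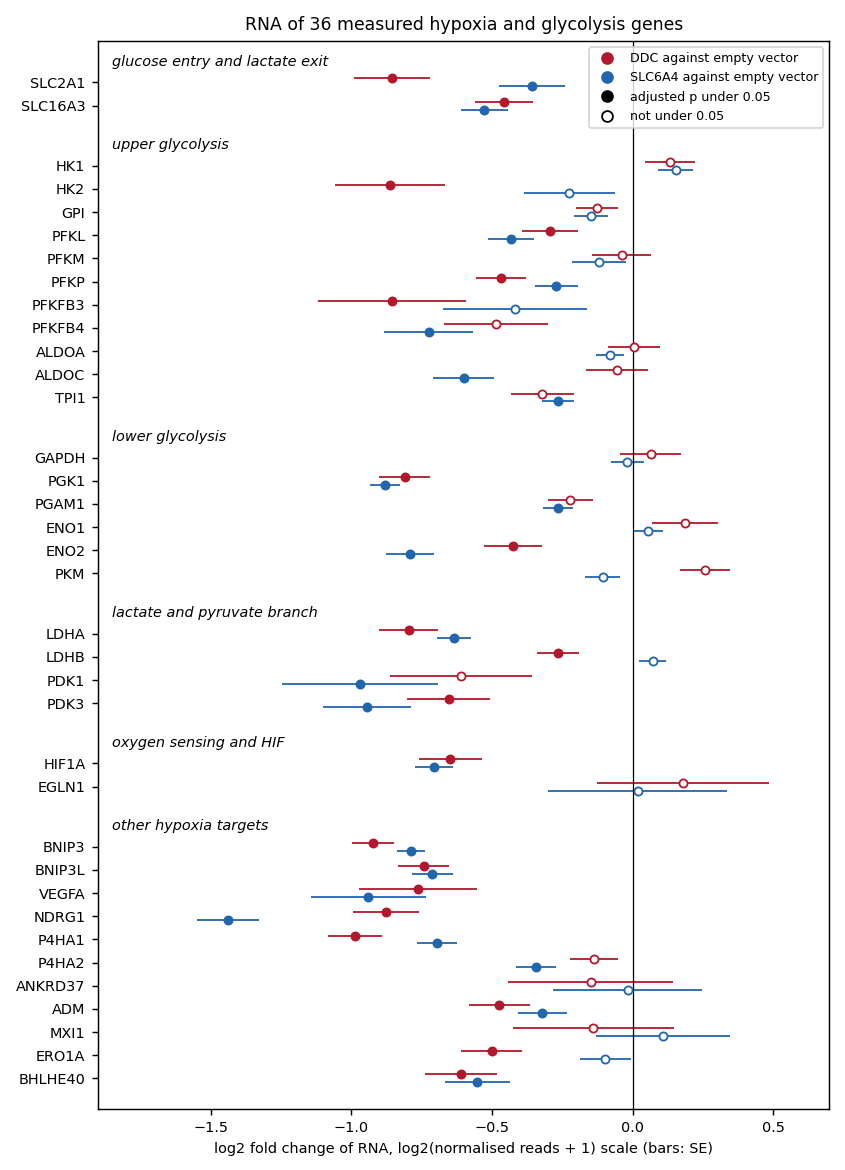
Log2 change of RNA (DDC, then SLC6A4, each over empty vector) for the 36 tested members by role, with limma standard errors and filled points for adjusted p under 0.05. Most points lie left of 0, from -0.99 for P4HA1 in DDC cells and -1.44 for NDRG1 in SLC6A4 cells up to 0.26 for PKM in DDC cells.

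At the cell surface, SLC2A1, the main glucose transporter of most cell lines, had 164, 165 and 209.8 normalised reads in DDC libraries, 249, 250.5 and 259 in SLC6A4 libraries and 379, 353 and 256 in empty-vector libraries. Every DDC library was below every empty-vector library, whereas an SLC6A4 library was above the lowest empty-vector library. The log2 change was -0.85 ± 0.14 (limma, adjusted p = 7.7e-05) in DDC and -0.36 ± 0.12 (limma, adjusted p = 0.040) in SLC6A4 cells, and the SLC6A4 call was lost when any of 5 of the 6 libraries was left out, with adjusted p from 0.0692 to 0.182. SLC16A3, the MCT4 transporter that exports lactate from glycolytic cells, was lower in both lines, at -0.46 in DDC and -0.53 in SLC6A4 cells. SLC2A3, the high-affinity glucose transporter, had 2, 5 and 4 reads over the DDC, SLC6A4 and empty-vector libraries and was not tested.

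In the upper steps, 4 of 11 genes were called lower in DDC cells and 5 of 11 in SLC6A4 cells, where 8.41% and 9.28% of all genes tested were. HK2, the inducible hexokinase, averaged 32.3 ± 4.40 normalised reads in DDC, 50.7 ± 2.80 in SLC6A4 and 59.6 ± 6.99 in empty-vector cells (SD, n = 3 each). It was called lower in DDC cells (-0.86 ± 0.20; limma, adjusted p = 0.0031) and not in SLC6A4 cells (-0.22 ± 0.16; limma, adjusted p = 0.376). HK1, the hexokinase of most resting cells and by far the more abundant of the pair, was at 0.13 and 0.15 and was called in neither. Of the phosphofructokinase subunits, which make the committed step, the liver form PFKL was lower, at -0.29 and -0.43 and the platelet form PFKP at -0.47 and -0.27 in DDC and SLC6A4 cells, while the muscle form PFKM was at -0.04 and -0.12.

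PFKFB3 and PFKFB4 make fructose 2,6-bisphosphate, the activator of phosphofructokinase. PFKFB3 was called in DDC cells (-0.86 ± 0.26; limma, adjusted p = 0.027), at 17.1 against 31.6 normalised reads, and PFKFB4 in SLC6A4 cells (-0.73 ± 0.16; limma, adjusted p = 0.0034). In the other line the changes were -0.42 for PFKFB3 in SLC6A4 and -0.48 for PFKFB4 in DDC cells, neither of them called. PFKFB2, of the same family and not a member, went the other way. It was called higher in SLC6A4 cells (0.63 ± 0.16, limma, adjusted p = 0.0099) and was not called in DDC cells (0.16). The calls of PFKL and PFKFB3 in DDC and of PFKP in SLC6A4 cells were each lost when some of the libraries were left out. Of the aldolases, ALDOA was at 0.01 and -0.08, and the brain form ALDOC was called lower in SLC6A4 cells and not in DDC cells (-0.60 ± 0.11 there, -0.05 ± 0.11 in DDC; a direct test of the lines follows). TPI1, which interconverts the triose phosphates, was called in SLC6A4 cells (-0.26; limma, adjusted p = 0.0032) and just missed the threshold in DDC cells (-0.32; limma, adjusted p = 0.051).

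In the lower steps PGK1, the first ATP-making enzyme of the pathway, had the largest fall of the 6 genes. It had 37116, 43159 and 40196 normalised reads in DDC libraries, 35702, 39756 and 39474 in SLC6A4 libraries and 73509, 70149 and 67856 in empty-vector libraries. All 6 overexpressing libraries were below all 3 empty-vector libraries. The log2 change was -0.81 ± 0.09 (limma, adjusted p = 7.7e-07) in DDC and -0.88 ± 0.05 (limma, adjusted p = 1.9e-09) in SLC6A4 cells. The enzymes on either side of it in the pathway moved less: GAPDH, the step before, was at 0.06 ± 0.11 and -0.02 ± 0.06, and the mutase PGAM1, the step after, at -0.22 ± 0.08 in DDC, where it was not called, and -0.26 ± 0.05 in SLC6A4 cells, where it was. ENO1, the ubiquitous enolase, was at 0.19 ± 0.12 and 0.06 ± 0.05.

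ENO2, the neuron-specific enolase and a marker of neuroendocrine tumours, had 291, 352 and 299 normalised reads in DDC libraries, 229, 246 and 255 in SLC6A4 libraries and 451, 404 and 411 in empty-vector libraries. The 3 groups did not overlap, with SLC6A4 lowest and empty vector highest. ENO2 was lower, at -0.42 ± 0.10 (limma, adjusted p = 0.0049) in DDC and -0.79 ± 0.09 (limma, adjusted p = 3.0e-06) in SLC6A4 cells. PKM, pyruvate kinase, was at 0.26 ± 0.09 in DDC cells (limma, adjusted p just above the threshold) and -0.11 ± 0.06 in SLC6A4 cells, neither called. GAPDH, PGK1, ENO1, TPI1, LDHA and ALDOA have processed pseudogenes or close relatives, and how reads with several alignments were counted is not given in the sources used here.

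In the lactate and pyruvate branch, LDHA, the lactate dehydrogenase subunit of glycolytic tissue, had 109771, 114241 and 113071 normalised reads in DDC libraries, 117253, 128992 and 132333 in SLC6A4 libraries and 210406, 193055 and 184279 in empty-vector libraries. No library of either overexpressing line reached the lowest empty-vector library. LDHA was lower, at -0.80 ± 0.10 (limma, adjusted p = 6.9e-06) in DDC and -0.63 ± 0.06 (limma, adjusted p = 6.6e-07) in SLC6A4 cells. LDHB, the heart-type subunit, was called in DDC cells (-0.26; limma, adjusted p = 0.016, from 0.0505 to 0.0759 without any of 4 of the 6 libraries) and was at 0.07 in SLC6A4 cells. PDK3 and PDK1, the members among the kinases that switch off pyruvate dehydrogenase, were low in reads. PDK3 averaged 68.1 ± 4.13, 56.3 ± 10.5 and 108 ± 9.67 normalised reads in DDC, SLC6A4 and empty-vector cells (SD, n = 3 each) and was called lower in both lines. PDK1 averaged 23.7 ± 3.41, 18.8 ± 6.28 and 37.8 ± 11.1 and was called lower in SLC6A4 cells, a call lost without SLC6A4 replicate 2 or 3 or empty-vector replicate 1 or 3. PDK2, a kinase of the same family and not a member, had more reads than either in every library. It was called in neither line (0.03 in DDC and 0.05 in SLC6A4 cells).

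HIF1A itself, the oxygen-regulated subunit, had 1467, 1278 and 944 normalised reads in DDC libraries, 1216, 1085 and 1199.6 in SLC6A4 libraries and 2050.2, 1910.1 and 1754 in empty-vector libraries. All empty-vector libraries were above all others, and the DDC libraries spread more than the other groups. Its log2 change was -0.65 ± 0.11 (limma, adjusted p = 2.2e-04) in DDC and -0.70 ± 0.07 (limma, adjusted p = 7.2e-07) in SLC6A4 cells. RNA gives no measure of the HIF1A protein, whose stability is what oxygen controls. EGLN1, the main HIF prolyl hydroxylase, was at 0.18 ± 0.31 and 0.02 ± 0.32 from 14.3 normalised reads in empty-vector cells, and EGLN3, the hypoxia-induced one, had 6, 3 and 4 reads over the DDC, SLC6A4 and empty-vector libraries and was not tested.

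Among the other hypoxia targets, 8 of 11 were called lower in each line, where 8.41% (DDC) and 9.28% (SLC6A4) of all genes tested were. BNIP3, a mitophagy receptor, had 3075, 3254 and 3402 normalised reads in DDC libraries, 3390.5, 3643 and 3674 in SLC6A4 libraries and 6215, 6202 and 6062 in empty-vector libraries. Its relative BNIP3L had 395, 382 and 379.9, 391, 393 and 401 and 665, 668 and 612 in the same order of groups. In both genes the overexpressing libraries lay far below the empty-vector ones with little spread within a group. BNIP3 was lower, at -0.92 ± 0.07 (limma, adjusted p = 2.7e-09) in DDC and -0.79 ± 0.05 (limma, adjusted p = 4.5e-09) in SLC6A4 cells, and BNIP3L at -0.74 ± 0.09 and -0.71 ± 0.07.

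P4HA1, the catalytic subunit of the collagen prolyl 4-hydroxylase, had 721, 752 and 595 normalised reads in DDC libraries, 872, 814 and 839 in SLC6A4 libraries and 1528, 1306 and 1273 in empty-vector libraries. The groups did not overlap and DDC was lowest. The log2 change was -0.99 ± 0.10 (limma, adjusted p = 7.5e-08) in DDC and -0.70 ± 0.07 (limma, adjusted p = 1.7e-06) in SLC6A4 cells. NDRG1, a hypoxia-induced metastasis suppressor, had 154, 169 and 146 normalised reads in DDC libraries, 102, 102 and 114 in SLC6A4 libraries and 263, 274 and 332 in empty-vector libraries. Here SLC6A4 was lowest, again without overlap. The changes were -0.88 ± 0.12 (limma, adjusted p = 9.4e-06) and -1.44 ± 0.11 (limma, adjusted p = 4.8e-08), the largest fall of any member in SLC6A4 cells.

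VEGFA, the angiogenic growth factor, was low in PC3 RNA, at 28.5 ± 5.05 normalised reads in DDC, 25.2 ± 4.11 in SLC6A4 and 48.9 ± 5.02 in empty-vector cells (SD, n = 3 each), and was called lower in both (-0.76 and -0.94); the call in DDC was lost without DDC replicate 3 or empty-vector replicate 1 or 2. ADM, which encodes the vasodilator adrenomedullin, was lower, at -0.47 and -0.32 (the call in SLC6A4 was lost without SLC6A4 replicate 2 or empty-vector replicate 2), and the transcriptional repressor BHLHE40 at -0.61 and -0.55. ERO1A, the oxidase of disulphide formation, was called in DDC cells (-0.50) and was at -0.10 in SLC6A4 cells, whereas P4HA2 was called in SLC6A4 cells (-0.34) and was at -0.14 in DDC cells. The MYC antagonist MXI1 and ANKRD37 were called in neither, with changes between -0.15 and 0.11, at 22.1 and 20.5 normalised reads in empty-vector cells. CA9, the carbonic anhydrase often used to stain hypoxic tumours, had 5, 6 and 15 reads over the DDC, SLC6A4 and empty-vector libraries, and LOX, a collagen crosslinker, had 8, 6 and 9; neither was tested.

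**Figure D2:**
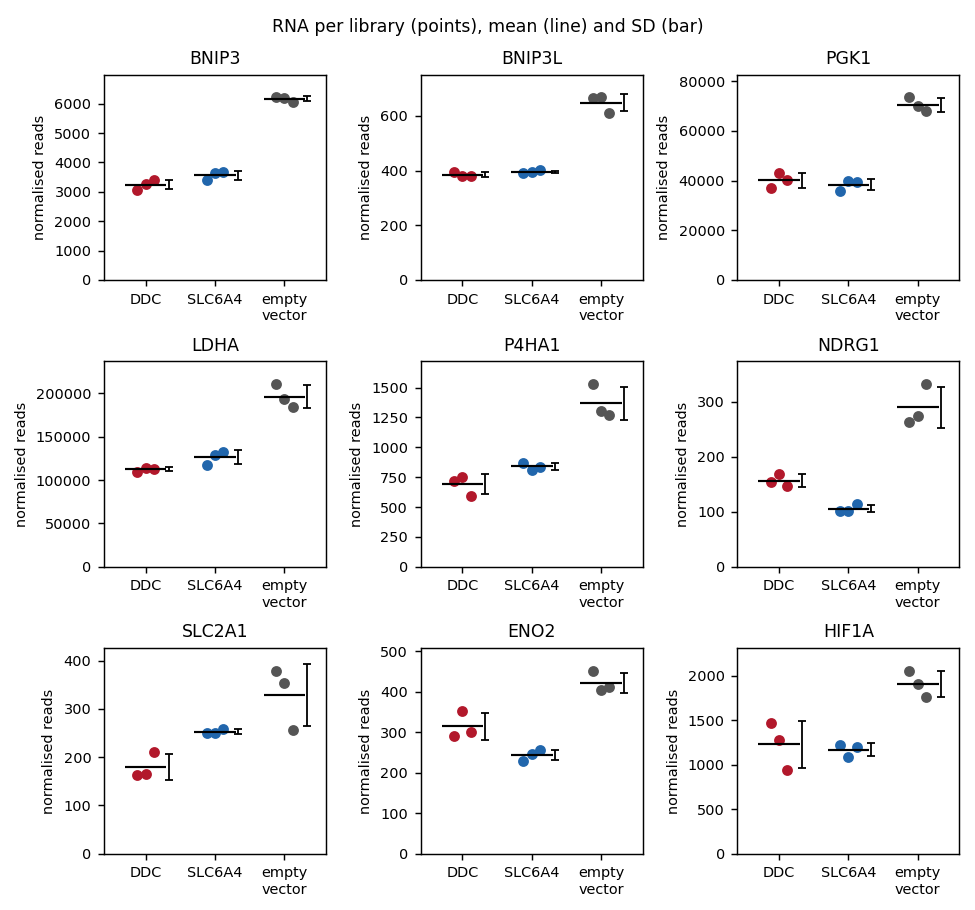
Normalised reads in each library (points), group means (lines) and SD (bars) for members with the smallest adjusted p, with DDC, SLC6A4 and empty vector from left to right. In every panel the empty-vector mean is the highest of the 3; in SLC2A1 alone an SLC6A4 point (259) lies above an empty-vector point (256).

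Levels per kilobase of exon put the members in order within PC3. In empty-vector cells TPI1 (78294 normalised reads per kb), GAPDH (63258), ENO1 (45233), LDHA (32511) and PGK1 (12968) led, and the lowest were LOX (0.550), EGLN3 (0.179) and SLC2A3 (0.166). In DDC cells GAPDH (65917) was above TPI1 (62577), and in SLC6A4 cells the 2 were at 62326 and 65130.0. PGK1 at 7386 in DDC and 7046 in SLC6A4 cells was below ALDOA at 8564 and 8056; in empty-vector cells PGK1 was above ALDOA at 8507. Called members lay between LDHA and VEGFA (3.39 normalised reads per kb) in DDC cells and between TPI1 and PDK1 (2.55) in SLC6A4 cells, by their level in empty-vector cells.

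**Figure D3:**
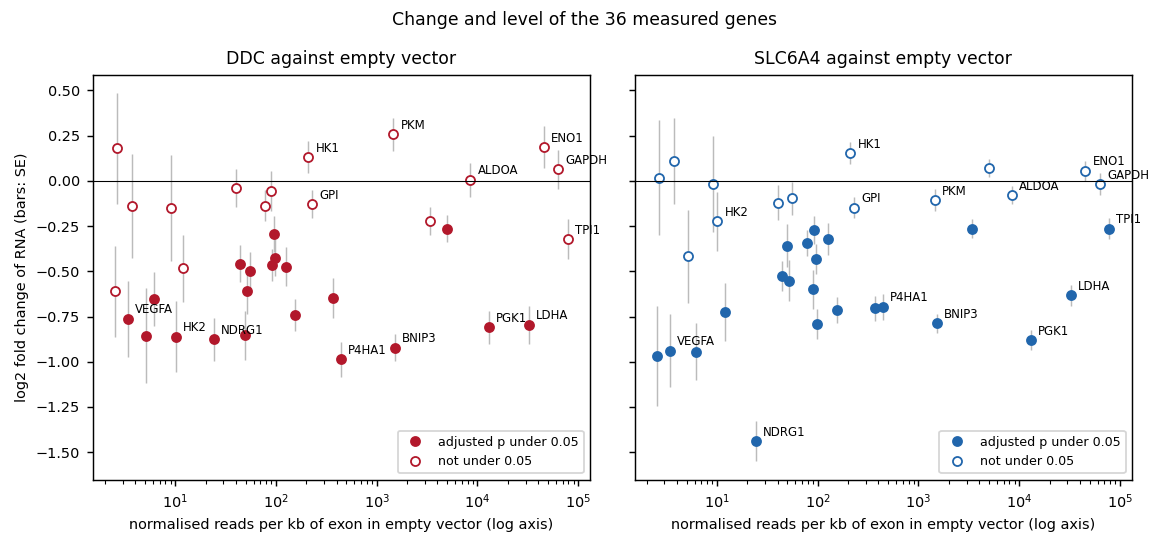
Log2 change of RNA over empty vector against the level in empty-vector cells (normalised reads per kb of exon, log axis) for the 36 tested members, DDC and SLC6A4 in separate panels, filled where called. LDHA and PGK1 lie near the right edge and low, while GAPDH and ENO1, at levels as high, lie near 0.

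Several members are isozymes that share a step, or relatives such as BNIP3 and BNIP3L, which are not enzymes. The share of one gene in such a pair is free of library scaling. Of 12 pairs, 10 had at least 10 reads in both genes; in 6 of the 10 the DDC and empty-vector libraries did not overlap, and likewise in 6 of 10 for SLC6A4. How often other pairs of genes separate in this way was not tested, so these counts are a description. With 3 libraries against 3 the exact two-sided permutation test cannot go below p = 0.10, which is what each pair without overlap gave. LDHA made up 81.8% ± 0.219 of LDHA and LDHB per kb in DDC, 79.9% ± 0.970 in SLC6A4 and 86.6% ± 0.868 in empty-vector cells (SD, n = 3 each). P4HA1 made up 75.8% ± 2.31, 81.6% ± 0.689 and 85.0% ± 0.426 of P4HA1 and P4HA2 in the same groups. Both shares were lower in the 2 overexpressing lines than in any empty-vector library. HK1 made up 97.7% ± 0.452 of HK1 and HK2 in DDC, 96.4% ± 0.248 in SLC6A4 and 95.4% ± 0.359 in empty-vector cells, and BNIP3 89.6% ± 0.665, 90.2% ± 0.314 and 90.7% ± 0.298 of BNIP3 and BNIP3L. The highest BNIP3 share in SLC6A4 libraries, 90.47%, was only just below the lowest in empty-vector libraries, 90.49%. PFKM was 37.1% ± 2.01 of PFKM and PFKP in DDC and 30.4% ± 0.704 in empty-vector cells; in SLC6A4 cells, at 32.8% ± 3.60, the libraries overlapped the empty-vector ones (exact permutation p = 0.40). PFKL against PFKP, PDK1 against PDK3 and PFKFB3 against PFKFB4 overlapped in both lines.

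**Figure D4:**
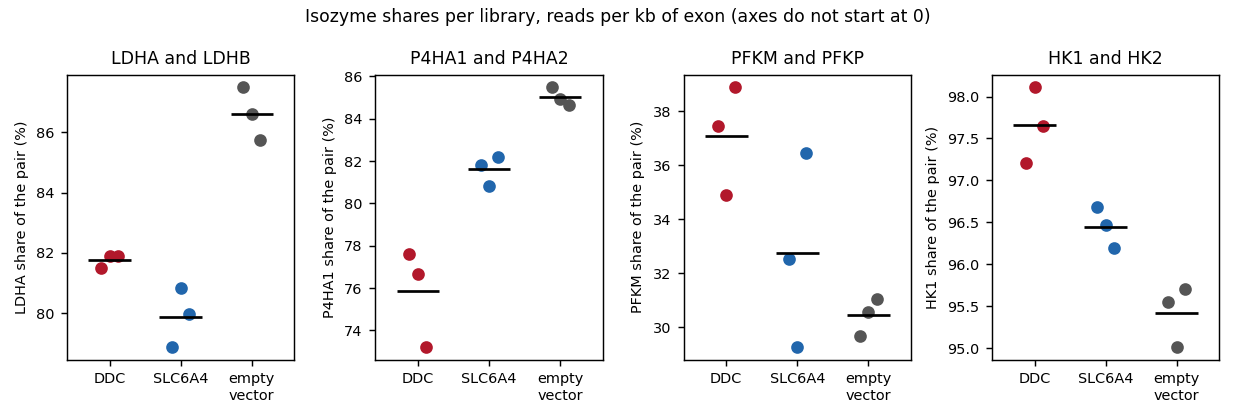
Share of the first isozyme in the normalised reads per kb of each pair, in percent, per library (points) with group means, DDC and SLC6A4 left of empty vector. The LDHA share is 81.8% in DDC, 79.9% in SLC6A4 and 86.6% in empty-vector cells, and the P4HA1 share 75.8%, 81.6% and 85.0%.

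The lines differed from each other at 9 members in a fit over all 9 libraries, where 6.47% of 13544 genes were called higher and 6.74% lower in DDC than in SLC6A4 cells. ALDOC (0.54 ± 0.11), NDRG1 (0.56 ± 0.12), ENO2 (0.36 ± 0.10) and PKM (0.36 ± 0.08) were higher in DDC. HK2 (-0.64 ± 0.18), SLC2A1 (-0.50 ± 0.13), ERO1A (-0.41 ± 0.10), LDHB (-0.34 ± 0.06) and P4HA1 (-0.29 ± 0.09) were lower in DDC. The adjusted p-values (limma) lay between 6.2e-04 for LDHB and 0.033 for P4HA1, and the calls of ENO2, HK2, SLC2A1, ERO1A and P4HA1 were each lost without at least 1 of the 6 libraries of the pair. For the other 27 members no difference between the lines was called; for PGK1 it was 0.07 ± 0.08 and for BNIP3 -0.14 ± 0.06.

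Genes next to the members in these pathways were read from lists that do not hold the members. These lists were also chosen with earlier results of these data known, so their counts are a description too. Of 21 tested further hypoxia-inducible genes, 13 were called lower in DDC cells and 12 in SLC6A4 cells, with median log2 changes of -0.55 and -0.42. Over all genes tested, 8.41% were called lower in DDC and 9.28% in SLC6A4 cells. DDIT4, the stress-induced inhibitor of mTORC1, had 196, 278 and 212 normalised reads in DDC libraries, 99.5, 125 and 136 in SLC6A4 libraries and 864, 782 and 626 in empty-vector libraries, a change of -1.72 ± 0.12 and -2.65 ± 0.12. Also lower in both lines were TMEM45A (-0.78 and -0.41), SPAG4 (-1.21 and -1.53) and FAM162A (-0.71 and -0.68), while STC2, encoding stanniocalcin, was lower in DDC (-0.91) and at -0.02 in SLC6A4 cells.

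The HIF complex and its oxygen-sensing machinery, HIF1A and the EGLN members aside, had no call among 11 tested genes in DDC cells by limma, edgeR or DESeq2; at an unadjusted p under 0.05, 1 was (ELOB, higher). In SLC6A4 cells 3 of 11 were lower: EPAS1, the HIF-2 alpha subunit (-0.75), VHL (-0.43) and ELOB, a subunit of the VHL ligase (-0.18). Of 11 tested further glycolysis genes, 1 was higher (the transporter SLC2A6, 0.69) and 1 lower (TXNIP, which restrains glucose uptake, -1.11) in DDC cells, and 3 were higher and 1 lower in SLC6A4 cells. Beside these and the following counts, 8.94% of all genes tested were called higher and 8.41% lower in DDC cells. In SLC6A4 cells the shares were 10.2% and 9.28%. Pyruvate oxidation and the citric acid cycle had 5 genes higher and 1 lower of 25 in each line, with the mitochondrial pyruvate carrier subunit MPC2 at 0.61 in DDC and 0.38 in SLC6A4 cells. In the pentose phosphate and sugar branches, 3 of 15 were higher and 3 lower in DDC cells, and 3 and 1 in SLC6A4 cells. The transketolase TKT (0.50 and 0.44), the transaldolase TALDO1 (0.45 and 0.39) and PGD (0.60 and 0.19) rose in both. PGM1 was lower in both (-0.28 and -0.53). UGP2 was lower in DDC cells (-0.74) and was not called in SLC6A4 cells (-0.08). None of 4 tested gluconeogenesis genes was called in either line by limma or DESeq2; in DDC cells 2 were lower at an unadjusted p under 0.05 and 1 by edgeR, and in SLC6A4 cells 0 by both.

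The members' promoters were then read in the ChIP counts, read pairs per region over 19535 H3K4me3Q5ser regions with a median length of 4023 bases. A region within 1000 bases of the annotated start stood for each of 38 members; SLC2A3 and CA9 had none. Libraries held 13.5 M to 24.8 M pairs in these regions for H3K4me3Q5ser, 3.43 M to 5.81 M for H3K4me3 and 1.39 M to 1.83 M for input. Some replicate pairs did not differ beyond sampling noise at a chi-square p under 0.05 (2 of 9 pairs for H3K4me3Q5ser, 4 of 9 for H3K4me3 and 1 of 6 for input), so the edgeR p-values here measure mainly counting error and small changes are called; counts of calls and of promoters past 1.5-fold with such pairs merged as 1 sample are given beside the main counts where they differ by over 1.5 times. The regions of 5 members also held the start of another coding gene: PPP4C at ALDOA, PIGS at ALDOC, SPSB2 at TPI1, LRP2BP at ANKRD37 and PSMC6 at ERO1A.

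With DDC the promoters of these genes changed little in either mark. For H3K4me3Q5ser, 28 of 38 were called by edgeR (12 higher, 16 lower), where 61.2% of 19535 regions were called, and none changed by 1.5-fold or more (1, EGLN3, did with GC offsets); over all regions, 1.33% were higher and 6.44% lower by that much. The P4HA1 promoter (chr10:73087698-73100733) had 515, 503 and 509 CPM (pairs per 1000000 pairs in regions) in DDC and 548, 559 and 556 CPM in empty-vector libraries, the ANKRD37 promoter (chr4:185394323-185400054) 27, 28.4 and 28.7 and 39.3, 39.9 and 38.6 CPM, and the ADM promoter (chr11:10299398-10309940) 135, 136 and 132 and 161, 156 and 159 CPM. All 3 were lower in every DDC library, with changes of -0.12 ± 0.011, -0.49 ± 0.046 and -0.24 ± 0.023 on the log2 scale (edgeR). The largest fall was at EGLN3 (-0.56, with 5.11 CPM or less in DDC libraries) and the largest gain at ALDOA (0.24), where the input was higher as well (0.38). For H3K4me3, 4 of 38 were called, all lower, where 17.6% of 18972 regions were called: HK2 (-0.30 ± 0.065), SLC2A1 (-0.20 ± 0.060), ANKRD37 (-0.24 ± 0.077) and ADM (-0.15 ± 0.049); 2 of the 4 were called with noise-level pairs merged. In CPM of H3K4me3, HK2 had 77.4, 76.7 and 74.3 in DDC and 94.4, 90.0 and 96.1 in empty-vector libraries, SLC2A1 90.1, 92.6 and 94.8 and 106, 104 and 109.7, and ANKRD37 55.8, 54.1 and 55.1 and 68.8, 61.8 and 65. The DDC libraries of these 3 promoters did not overlap the empty-vector ones.

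With SLC6A4 most of the promoters had more H3K4me3Q5ser, with a median log2 change of 0.27 that was 0.07 once a trend with GC content was removed, while the RNA of many of these genes was lower. edgeR called 34 of 38 (25 higher, 9 lower), where 82.5% of regions were called; 10 were higher and 1 lower by 1.5-fold or more, against 13.5% and 17.1% of all regions. The 10 were SLC16A3 (1.08), GPI (1.02), VEGFA (0.97), PFKL (0.91), PFKP (0.89), BNIP3 (0.84), ALDOA (0.74), PFKFB3 (0.71), GAPDH (0.61) and ENO2 (0.59), and the 1 was ANKRD37 (-0.81). At VEGFA (chr6:43767318-43777671) the libraries had 186, 184 and 192 CPM in SLC6A4 and 95.2, 94.4 and 97.2 CPM in empty-vector cells, and at SLC16A3 (chr17:82224437-82232785) 139, 139 and 134 and 65.4, 63.6 and 65.4 CPM. At ERO1A (chr14:52687499-52719999), the next by adjusted p, the values were 546, 547 and 533 in SLC6A4 and 675, 684 and 670.2 in empty-vector cells. The first 2 promoters were higher and ERO1A lower in every SLC6A4 library. Of the 22 members called lower in SLC6A4 RNA, 16 had the mark called higher and 4 lower, and of the 14 not called in RNA, 9 and 3. With the trend with GC content removed, 12 of the 22 were called higher and 5 lower, and of the 14, 9 and 3. The median log2 change of the mark was then 0.07 in place of 0.33 for the 22, and 0.14 in place of 0.27 for the 14.

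These SLC6A4 changes moved with the GC content of the regions. Over 19480 regions with a sequence in GRCh38, Spearman's rho between GC content and the log2 change of H3K4me3Q5ser was 0.71, and medians in 20 bins of GC content ran from -1.22 in the lowest to 0.63 in the highest bin; for DDC rho was 0.12. The members' regions had a median GC content of 51.9% (38.2% to 67.5%), against 46.8% over all regions, and across the 38 members rho was 0.79. SLC16A3, with the largest gain, had the highest GC content of the 38, and HIF1A the lowest. With offsets that remove each library's trend with GC content, an alternative chosen after the trend was seen, 31 of 38 were called (21 higher, 10 lower) where 73.5% of regions were called, 1 was higher (GPI, 0.66) and 2 lower (EGLN3, -0.68; ANKRD37, -0.63) by 1.5-fold or more against 4.93% and 9.63% of regions, and the median over members was 0.07 in place of 0.27. VEGFA was then at 0.49, SLC16A3 at 0.47 and BNIP3 at 0.54, all called. The sign turned for 12 of the 34 called promoters, among them HIF1A (-0.23 without and 0.52 with the offsets), P4HA1 (-0.33 and 0.06) and ERO1A (-0.32 and 0.07), and 7 of the 12 were called with the offsets too. Whether the trend arose in the cells or in the libraries was not tested, and input of the SLC6A4 line was not analysed here.

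**Figure D5:**
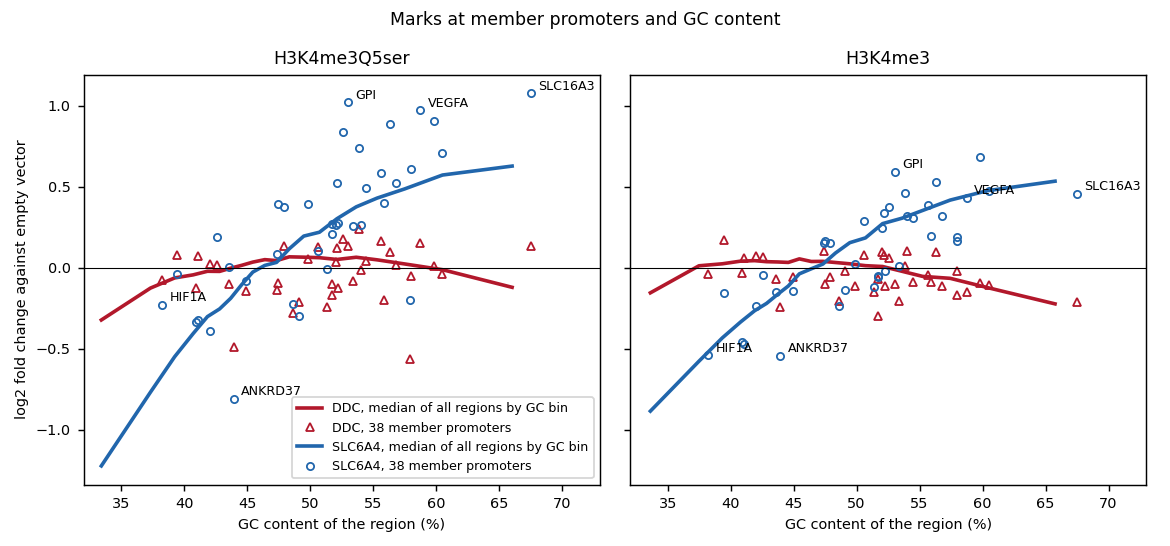
Log2 change of H3K4me3Q5ser (left) and H3K4me3 (right) over empty vector at the 38 member regions against their GC content in percent, for DDC and for SLC6A4. The SLC6A4 points climb with GC content in both panels, from HIF1A at 38.2% to SLC16A3 at 67.5%, and the DDC points do not.

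H3K4me3 in the SLC6A4 line moved the same way with GC content (rho 0.68 over 18921 regions, 0.83 over the 38 members). edgeR called 28 of 38 (18 higher, 10 lower), where 61.5% of regions were called, and PFKL (0.69) and GPI (0.59) passed 1.5-fold (PFKL alone with the pairs merged), where 11.2% of regions were higher and 10.7% lower by that much. With the offsets 18 were called (5 higher, 13 lower), where 41.3% of regions were called, and none passed 1.5-fold, where 5.27% of regions were higher and 3.66% lower by that much. By adjusted p HIF1A came first, with 399.7, 409 and 415 CPM in SLC6A4 and 625, 587 and 573 CPM in empty-vector libraries; ERO1A had 480.4, 472 and 458 and 649.6, 654 and 648 CPM, and P4HA1 365, 359 and 381 and 502, 489 and 527 CPM. Each was lower in every SLC6A4 library. The log2 changes were -0.54 ± 0.026, -0.47 ± 0.024 and -0.46 ± 0.027, and with the offsets 0.01, -0.15 and -0.14. The sign turned with the offsets for 8 of the 28 called promoters (SLC16A3, PFKM, PFKFB4, TPI1, LDHB, HIF1A, NDRG1 and MXI1), of which LDHB (0.25) and NDRG1 (-0.13) were still called.

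A fit of both marks tested whether H3K4me3Q5ser moved otherwise than H3K4me3. In SLC6A4 cells it did at 26 of 38 promoters, with relatively more H3K4me3Q5ser at 24 and less at 2 (edgeR), where 29.2% of 19529 regions were called. With the GC offsets it did at 22 (19 and 3), where 5162 of 19474 regions were called. The excess was 0.62 ± 0.081 at SLC16A3, 0.54 ± 0.067 at VEGFA, 0.47 ± 0.081 at BNIP3 and 0.31 ± 0.026 at HIF1A on the log2 scale, and 0.59, 0.43, 0.40 and 0.58 with the offsets. For HIF1A, whose RNA was lower, H3K4me3Q5ser was at -0.23 and H3K4me3 at -0.54 without the offsets, and at 0.52 and 0.01 with them, so a lower mark at HIF1A holds only without the offsets. In DDC cells 7 of 38 were called (4 and 3), where 15% of regions were. With the offsets 4 were called, where 1750 of 19474 regions were. With noise-level pairs merged 2 were called, where 1828 of 19535 regions were. Input, analysed for DDC against empty vector, differed at 5 of 38 promoters, where 6.3% of regions were called. With the pairs merged it differed at 2, where 746 of 18268 regions were called.

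The deposited peak lists place the same genes among marked promoters. A peak lay within 1000 bases of the start at 38 of 40 members for H3K4me3Q5ser (95.0%, against 87.3% of 13465 genes that passed the RNA filter) and at 31 for H3K4me3 (77.5% against 78.7%). The 9 without an H3K4me3 peak were SLC2A3, CA9, GAPDH, GPI, PFKP, PFKFB3, ENO2, ALDOA and ALDOC. Of the CUT&Tag lists, the one whose name marks its peaks as not up held 26 members (65% against 69.2%) and the one named as up held 3, LDHA, BNIP3 and MXI1 (7.5% against 15.8%). The member shares cover all 40 members, and the shares beside them only genes that passed the RNA filter. Of the 36 members that passed it, 36 had an H3K4me3Q5ser peak and 29 an H3K4me3 peak. The list of peaks not up held 26 of these 36, and the list of peaks up held 3. In the deposited table of CUT&Tag H3K4me3 values, in CPM, the 26 members had ratios of SLC6A4 over control from 0.884 to 1.22, with a median of 1.10 against 1.07 over its 13882 peaks; no value in that table exceeds a ratio of 1.25, so it cannot show a larger gain, and none of the 26 was lower by 1.5-fold or more, where 1.01% of peaks were. These values were deposited under a name that marks their peaks as not dependent on Q5, and LDHA, BNIP3 and MXI1 are not among them. The ratios with shTGM2 thus cover only peaks of that class. Of SLC6A4 with shTGM2 over SLC6A4 the ratios ran from 0.650 at PDK3 (2.81 and 4.33 CPM) to 1.25 at ENO1 (13 and 10.4 CPM), with a median of 0.936 against 0.944. PDK3 was the 1 member lower by 1.5-fold or more, where 1.12% of peaks were; with 1 library per group there is no replicate check. NDRG1 had 47.4 CPM with shTGM2, 67.4 CPM in SLC6A4 and 74.2 CPM in control cells, and HIF1A 146, 156 and 128 CPM.

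RNA changes were set beside the promoter letters as a last description. Of the 15 tested members with ACGTG in the promoter window, 9 were called lower in DDC and 8 in SLC6A4 cells, with medians of -0.50 and -0.55. Of the 18 tested members without it, 8 and 11 were, with medians of -0.31 and -0.30. The remaining 3 tested members had no promoter in the RefSeq table. Over all genes tested, 8.41% were called lower in DDC and 9.28% in SLC6A4 cells. Calls among all genes with and without ACGTG were not counted, so the split of the members has no such share beside it.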

How the data were processed

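RNA, ChIP and CUT&Tag libraries of PC3 cells were read from the processed tables. Per the submitters' processing notes, HISAT2 2.1.0, Bowtie2, MACS2, HOMER, DESeq2 and GRCh38 were used. The RNA tables hold a signal per gene that the authors deposited as reads divided by a size factor of the 6 libraries of each pair; every value was a whole number of reads to within 1e-06 once multiplied back. Per-library values in the text use size factors shared by the 9 libraries, and log2 changes the deposited scale of each pair. Per the file headers, the ChIP table holds estimated counts of read pairs per region from featureCounts, in which shared hits count as fractions and 9.78% of the values are not whole; they were rounded for edgeR. CUT&Tag values are CPM, as deposited, in a table that keeps only control values of at least 4.01 CPM and SLC6A4 over control ratios of at most 1.25. Peak lists, as deposited, hold positions only.

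Samples were grouped by their labels. RNA was tested with limma 3.58.1 (empirical Bayes with a trend) on log2(value + 1), which understates the fold of low genes, over genes with at least 10 in 3 libraries; ChIP with edgeR 4.0.16 quasi-likelihood, TMM scaling and its filter on low counts, and ChIP CPM are per 1000000 pairs in regions. Adjusted p-values follow Benjamini-Hochberg over all features, with a threshold of 0.05. Isozyme shares used exact permutation tests. Alternatives were pseudocounts of 0.5 and 5, no filter, edgeR and DESeq2 1.42.0 on recovered reads, library size scaling, a replicate block and leaving out each library; GC offsets and merged pairs were chosen after seeing the data. The scripts were tested on simulated data. Summaries and plots came from Python 3.11.15 (pandas 2.3.3, matplotlib 3.10.9, scipy 1.17.1, numpy 2.4.6), and fits from R 4.3.3. Of 62703 gene IDs 62625 matched GENCODE 44.

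The members and gene lists were chosen with earlier results of these data known. All 40 members could be named. Each library's values are given for the 8 members with the smallest adjusted p in each RNA comparison and for up to 6 called promoters per ChIP comparison, and up to 4 called genes per neighbouring list and comparison. PDK2, which was not called, is named beside PDK1 and PDK3. The other CUT&Tag libraries and the input of the SLC6A4 line were not analysed here. The result of a gene in the list of further hypoxia-inducible genes is not reported here.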

Additional observations from a re-analysis of the deposited data

Results flagged for a closer look

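The 2 overexpressing lines differed from each other, in a test of DDC against SLC6A4 over all 9 RNA libraries (limma, adjusted p under 0.05), at 9 members. On the log2 scale the difference was 0.56 for NDRG1, 0.54 for ALDOC, 0.36 for ENO2 and 0.36 for PKM, each higher in DDC. It was -0.64 for HK2, -0.50 for SLC2A1, -0.41 for ERO1A, -0.34 for LDHB and -0.29 for P4HA1, each lower in DDC. The calls of NDRG1, ALDOC, PKM and LDHB held under all 11 alternatives run, and those of ENO2, ERO1A, HK2, P4HA1 and SLC2A1 were each lost under at least 1. The epithelial markers, lower in DDC than in SLC6A4 at 4 of 5 genes, moved between the same libraries, and their part was not tested. Over all genes tested, 6.47% were called higher and 6.74% lower in DDC than in SLC6A4 cells.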

How the results depend on the processing

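In RNA, leaving out 1 library in turn gave 17 to 20 members called in DDC (20 with all libraries), 19 to 21 in SLC6A4 (22) and 6 to 8 between the lines (9). In DDC 16 calls held under all 13 alternatives and 4 did not: PFKL, lost by DESeq2 and without DDC replicate 1 or 3 or empty vector replicate 1 or 2 (adjusted p up to 0.243); PFKFB3, lost in the same settings (up to 0.115); LDHB, lost without DDC replicate 2 or any empty vector replicate (up to 0.0759); and VEGFA, lost by DESeq2 and without DDC replicate 3 or empty vector replicate 1 or 2 (up to 0.0630). Under at least 1 of these alternatives 7 further members were called in DDC (6 lower; PKM higher, at up to 0.34). In SLC6A4 1 was (HK1, higher, at 0.20), 18 calls held and 4 did not: SLC2A1 (without any SLC6A4 replicate or empty vector replicate 1 or 2, up to 0.182), PFKP (without SLC6A4 replicate 3 or empty vector replicate 2 or 3, up to 0.101), PDK1 (without SLC6A4 replicate 2 or 3 or empty vector replicate 1 or 3, up to 0.0917) and ADM (without SLC6A4 replicate 2 or empty vector replicate 2, up to 0.0741). Library size scaling in edgeR moved the median of all genes in DDC to -0.12 and the share of calls that were higher to 24.7% (51.5% otherwise), with 26 members lower and 0 higher. A replicate block, though the numbers do not pair the samples (deviations of same-numbered libraries correlated between -0.04 and 0.03), gave 20, 22 and 9 members in the 3 RNA comparisons and 28, 33, 4 and 28 promoters in the H3K4me3Q5ser and H3K4me3 comparisons.

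With GC offsets, promoters past 1.5-fold numbered 1 for H3K4me3Q5ser in DDC (0 without offsets; 0 to 1 with 1 library left out), 3 for H3K4me3Q5ser in SLC6A4 (11 without) and 0 for H3K4me3 in SLC6A4 (2 without; 1 with pairs merged, 1 by DESeq2, 1 to 3 with 1 library left out), and calls numbered 18 for H3K4me3 in SLC6A4 (28), 2 for input (5; 2 with pairs merged) and 4 for the interaction in DDC (7; 2 with pairs merged). H3K4me3 calls in DDC numbered 2 with pairs merged and 2 by DESeq2 (4 otherwise). The sign turned with the offsets at 1 called promoter for H3K4me3Q5ser in DDC (HIF1A, 0.086), 12 for H3K4me3Q5ser in SLC6A4 (HIF1A at 0.52, P4HA1 at 0.062 and ERO1A at 0.074 among them) and 8 for H3K4me3 in SLC6A4 (HIF1A at 0.0067 among them); the cause of the trend with GC content was not tested. At a fold of 2, 0 members passed in CUT&Tag (1 at 1.5-fold), and asking that a peak hold the start left 9 members for H3K4me3 (31 within 1000 bases), 7 for the CUT&Tag list of peaks not up (26) and 1 for the list of peaks up (3). With a peak that holds the start, these were 22.5%, 17.5% and 2.5% of members. Of genes that passed the RNA filter, 35.6%, 30.6% and 4.44% had such a peak. Of the 36 members that passed it, 8, 7 and 1 had such a peak. Depth limits the members with under 20 reads over a group (CA9, EGLN3, LOX and SLC2A3), and intervals of ChIP values cover counting error only. Input of SLC6A4 against empty vector was not run.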
